A study of Mus musculus with 9 samples.

Results

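The circular RNAs (circRNAs) described here are the exonic ones that were found in every library of a mouse muscle cell time course and that carry no circBase identifier. circBase is a public catalogue of published circRNAs. Members were chosen by the deposited annotation and counts: the type was exon, the field for a known circRNA held a dash, and the count was above 0 in all 9 libraries. This gave 1045 circRNAs out of 37751 listed, from 761 host genes. They are called uncatalogued below, which refers only to that deposited field. The sources used here do not describe how loci were matched to the catalogue.

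The cells were C2C12, an established line of mouse myoblasts, in 3 groups of 3 libraries. The day 0 group held proliferating cells in medium with 10% fetal bovine serum, at 70 to 80% confluence. The day 3 and day 6 groups had spent 3 or 6 days in medium with 2% horse serum, which starts differentiation. No agent or genetic change is named. No label says that the libraries of one day came from separate cultures, so the p-values below measure the spread between these libraries, which may be technical.

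A circRNA forms when the splice donor at the end of an exon is joined to an acceptor upstream of it, which closes the exons between into a loop. Only the reads that cross this back-splice junction show the circle, and they were what was counted. circRNAs lack the free ends that exonucleases attack and are long-lived. Many circRNA hosts are long genes with large introns beside the circularised exons. In myoblasts, withdrawal of serum leads to exit from the cell cycle, expression of the contractile and calcium-handling genes, and fusion into myotubes.

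The junctions of the most abundant uncatalogued circRNAs whose ends fit annotated exons were as follows, each as the 15 last bases of the closing exon in lower case and the 15 first bases of the opening exon in capitals, read from GENCODE M21 transcripts of GRCm38. They show which exon ends each back-splice joins.
Nfkb1, exons 2 to 6, chr3:135655500-135669339, minus strand: tacccacaggtcaaaGTACCCTCAGAGGCC
Cnot6l, exons 2 to 4, chr5:96128943-96134132, minus strand: ctctaggtttaacagACTAATAGGGATGCC
Ascc3, exons 31 to 36, chr10:50748806-50767507, plus strand: ctgtcaattctgagtATGGACAACATCATT
Cnksr3, exons 2 to 4, chr10:7152864-7160807, minus strand: acagcagtccagaagGGTTGGATGACTGCC
Oxr1, exons 4 to 11, chr15:41797474-41826052, plus strand: gccagggagtgggagACACTGGCCAAAAGA
Asph, exons 2 to 3, chr4:9635901-9639347, minus strand: ccaaagttttattagAGGCAAAGCACGGAG
Ryr1, exons 85 to 89, chr7:29035980-29040893, minus strand: aaggacttccagaagATTTCCAAAACTACC

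The 3 largest rises and 3 largest falls at day 6 among circles that passed, leaving out Bin1, had these junctions in the same notation.
Lrp4, exons 14 to 16, chr2:91480313-91481980, plus strand: acgcctgtgcccagaAACCATTTATTGGAC
Dysf, exons 37 to 40, chr6:84149675-84152409, plus strand: ctcattcctgtccagACGGAGGACACAGAT
Spag5, exons 17 to 23, chr11:78319986-78321766, plus strand: cagcatgtctatgagTGCCAGAACCAGCTC
Mmd, exons 2 to 6, chr11:90257520-90267581, plus strand: gtggtgacatcaatgTTTCATGAACCATCG
Foxn2, exon 2 alone, chr17:88462713-88463263, plus strand: agaagtcatggcaagAAATATACGAGTAAA

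Libraries held 208787 to 443955 back-splice reads. Presence in every library chose the members, so their abundance is described and not tested, and a circRNA that was absent on any day could not be one. They were 3.26% of the 32069 exonic circRNAs without an identifier, while 395 of the 985 exonic circRNAs with one, 40.1%, were found in every library. These 395 are the catalogued set used for comparison. Of the 1440 exonic circRNAs found in every library, 72.6% were uncatalogued. Just outside the rule, 633 uncatalogued exonic circRNAs were found in 8 libraries, with a median of 227 reads in all. Just inside it, 114 members had a lowest count of 2 to 5 and a median of 240 reads. The library most often missing among the 633 was day 0 replicate 2, with 163.

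Of all back-splice reads, the uncatalogued circRNAs held 29.7% ± 0.744 on day 0, 30.7% ± 0.128 on day 3 and 30.9% ± 0.447 on day 6 (mean ± SD over 3 libraries, as in all such values below). The libraries gave 29.4%, 30.5% and 29.1% on day 0, 30.5%, 30.8% and 30.7% on day 3, and 31.4%, 30.6% and 30.6% on day 6. The highest day 0 library came within rounding of the lowest of day 3, and the differences were not tested. The 395 catalogued circRNAs held 26.7% ± 0.872, 29.7% ± 0.563 and 29.1% ± 1.63. The 2 sets thus had similar totals of reads, 814368 and 763106, spread over different numbers of circles. Per circle, the median level was 173 CPM against 342 CPM, where CPM is the depth-scaled count of back-splice reads, with TMM-adjusted library totals. The median number of reads over all libraries was 462 against 929. The median coefficient of variation between libraries of one day was 0.376, 0.326 and 0.380 over the 3 days, against 0.305, 0.254 and 0.280 in the catalogued set.

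A few circles stood above the rest. The first 2 uncatalogued circRNAs held 7.0% of the set's reads, the first 10 held 12.6% and the first 100 held 39.1%. Among all exonic circRNAs found in every library, ranked by reads, 2 of the first 10, 11 of the first 50 and 38 of the first 100 were uncatalogued. The most abundant, at a mean of 11586 CPM, came from Nfkb1, which encodes the precursor of an NF-kappa-B subunit. The next, at 9885 CPM, came from Cnot6l, which encodes a deadenylase that shortens the poly(A) tails of messenger RNAs.

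**Figure D1:**
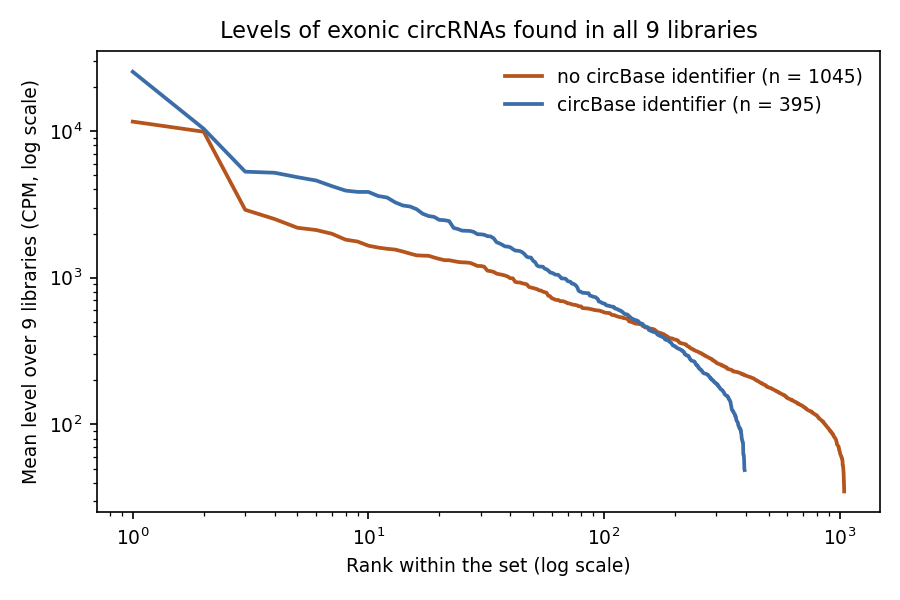
Mean level over 9 libraries (CPM, log scale) against rank within the set (log scale) for the 1045 uncatalogued and the 395 catalogued exonic circRNAs found in every library. The uncatalogued curve starts at 11586 CPM, runs below the catalogued one at each of the first 100 ranks and extends to lower levels. The curves cross at a later rank. The catalogued curve ends at 48.8 CPM at rank 395, where the uncatalogued one is still above its median of 173 CPM. Equal ranks in sets of unequal size are not like for like.

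Nfkb1 exons 2 to 6, a circle of 326 exonic nucleotides spanning the start codon, stood at 13383, 12389 and 16033 CPM at day 0, at 9540, 12803 and 9386 CPM at day 3 and at 9658, 9923 and 11160 CPM at day 6. The day 6 libraries all lay under those of day 0, while day 3 overlapped day 0 through 1 library. The fitted log2 change was -0.40 ± 0.10 (SE) at day 3, adjusted p = 0.021, and -0.44 ± 0.10 at day 6, adjusted p = 0.0050 (edgeR quasi-likelihood test, Benjamini-Hochberg over all 8153 circRNAs tested). Both calls were lost with a minimum count of 10 in the filter and when only the 2 groups compared were fitted. This circle held 93.9% of all back-splice reads of its host.

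Cnot6l exons 2 to 4 stood at 7302, 7662 and 8144 CPM at day 0. It reached 10471, 10948 and 10878 CPM at day 3 and 11248, 11505 and 10804 CPM at day 6. Every differentiated library lay above every day 0 library. The log2 change was 0.48 ± 0.10 at day 3, edgeR adjusted p = 7.8e-04, a call lost with DESeq2 and with only the 2 groups, and 0.54 ± 0.10 at day 6, edgeR adjusted p = 9.5e-05, which held in all 16 alternative fits. A longer member from the same host closed exons 2 to 5 onto the same acceptor: ttgacaatcttgcagACTAATAGGGATGCC, in which the capitals are identical to those of the shorter circle. Of the reads of the 2 circles, the shorter took 85.9% ± 3.51 at day 0, 85.3% ± 0.977 at day 3 and 85.9% ± 2.76 at day 6, so their proportion differed between days by less than the spread between libraries.

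The other circles among the 8 with the highest mean levels were from Gm21992, Ascc3, Cnksr3, Oxr1, Asph and Ryr1. Ascc3 encodes a helicase and its circle held exons 31 to 36. It rose from 2211, 1620 and 1174 CPM at day 0 to 3168, 3411 and 3166 CPM at day 3, a log2 change of 0.96 ± 0.19 with an edgeR adjusted p of 7.8e-04, lost only when the 2 groups alone were fitted. At day 6 it stood at 2695, 2755 and 2393 CPM, above every day 0 library, with a log2 difference of 0.65 ± 0.19 that missed the threshold (edgeR adjusted p = 0.055). Cnksr3, a scaffold of growth factor signalling, gave 2105 ± 310, 2307 ± 416 and 2154 ± 227 CPM over the 3 days. Oxr1, an oxidation resistance gene, gave 2198 ± 330, 2070 ± 111 and 2072 ± 572 CPM. Asph, a hydroxylase gene, gave 1846 ± 529, 2274 ± 536 and 1858 ± 278 CPM. For these 3 circles the days overlapped and no comparison passed. Both ends of the Gm21992 circle lay at exon edges, but of no single annotated transcript, so its exon content was not assigned.

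By position, the uncatalogued circles lay inside their hosts and mostly held several exons. Their genomic span had a median of 9421 bp, with quartiles of 4120 and 18120 bp, and ran from 339 bp to 221461 bp. The catalogued set had a median of 8520 bp. Spans under 1000 bp were found for 51 uncatalogued circRNAs (4.88%) and 36 catalogued ones (9.11%), and spans over 100000 bp for 13 and 0. These are descriptions without a test, since circRNAs are not replicates.

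In 1007 of the 1045, or 96.4%, both ends matched exon edges of 1 annotated transcript of the named host, against 95.2% of the catalogued set. Of the remaining 38, 28 had 1 end at an exon edge, 5 had both ends at edges that no single transcript joined, and 5 had neither. In 10 of the 1007 the ends also fitted a transcript of another gene on the same strand, so their host is uncertain. One member lay on an unplaced scaffold. Its host was not found in the annotation used, so the strand of that host is not known here.

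Among the 1007, the median circle held 4 exons and 529 exonic nucleotides, against 4 exons and 503 nucleotides in the catalogued set. From 2 to 5 exons were held by 748 (74.3%), and a single exon by 30 (2.98%) against 28 of 376 (7.45%). None began in exon 1, which has no splice acceptor, and 1 ended in the last exon. Exon 2 was the opening exon of 370 (36.7%) against 177 (47.1%) of the catalogued circles. Coding sequence alone was held by 827 (82.1%), and 160 (15.9%) combined 5′ UTR with coding sequence. The exonic length was a multiple of 3 in 379 (37.6%) and in 35.6% of the catalogued circles. The introns beside the circles had median lengths of 11083 bp upstream and 7943.5 bp downstream, against 15638.5 and 12393.5 bp. The median GC content of the circularised exons was 50.2%, over 977 circles with sequence, against 49.1% over 362.

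**Figure D2:**
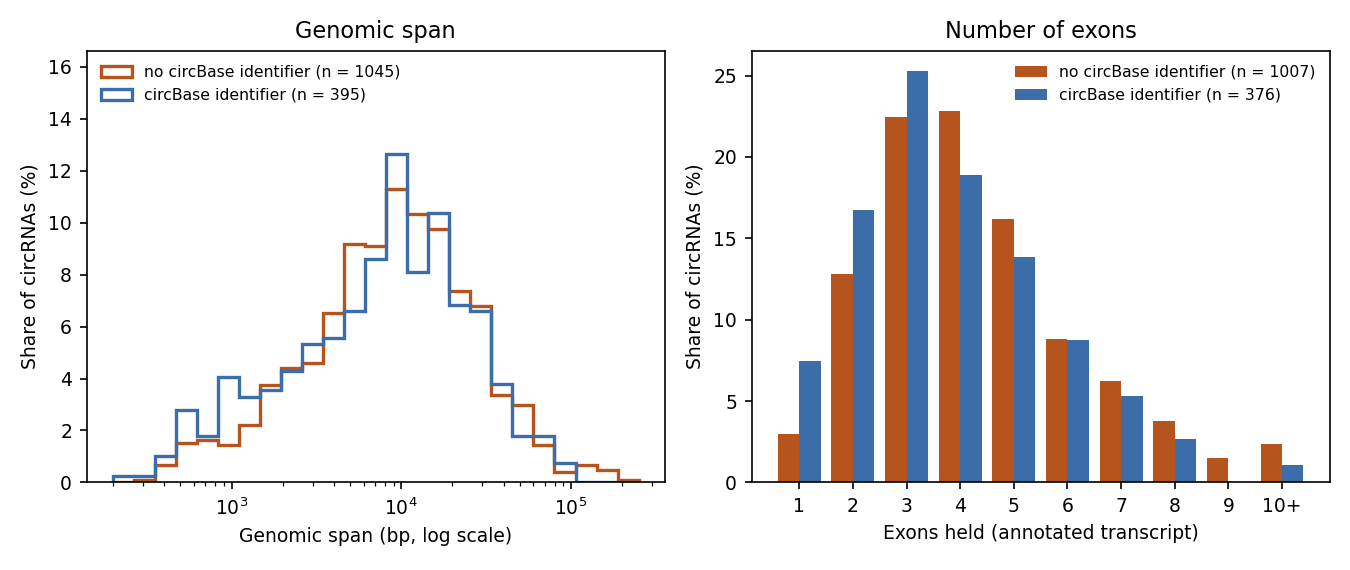
Left, genomic span (bp, log scale) and, right, number of exons held, each as the share of circRNAs (%) in the uncatalogued and the catalogued set. The medians are 9421 and 8520 bp, both sets peak at 3 to 4 exons, and circles of 1 exon make up 2.98% of the uncatalogued and 7.45% of the catalogued set.

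The circles at the extremes of span are given here, beside quartiles of 421.5 and 721 exonic nucleotides over the set. The widest circle, from Atxn1, which encodes the polyglutamine protein ataxin, covered 221461 bp but held 4 exons with 443 nucleotides, all untranslated. It stood at 225 ± 96.7, 362 ± 37.3 and 363 ± 260 CPM over the 3 days. A second Atxn1 circle, exons 2 to 4, covered 161067 bp and 379 nucleotides. Bnc2, a zinc finger gene, gave the next widest, 165016 bp with 465 nucleotides in 3 exons. At the other end stood the single exons of Gatad2b (339 bp) and Elf4 (378 bp), and exons 6 to 7 of Clk1, which with the intron between them spanned 371 bp.

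Within their hosts these circles were often the main product. The median uncatalogued circRNA held 43.0% of its host's back-splice reads, against 58.3% in the catalogued set, and 639 (61.1%) were the most abundant circle of their host, against 282 (71.4%). Over 90% of host reads were held by 111, and under 10% by 126. The host had no catalogued circRNA anywhere in the table for 746 (71.4%). Of the 299 in hosts that had one, 123 had more reads than every catalogued circRNA of that host.

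The lowest shares came from hosts with 1 dominant catalogued circle. Nfix, a transcription factor gene, had 4 uncatalogued circles, of which exons 2 to 10 held 0.506% and exons 3 to 10 held 0.623% of its 75654 host reads. Exons 3 to 8, its most abundant uncatalogued circle, held 3.95% and stood at 880 ± 226, 1295 ± 157 and 1177 ± 132 CPM, with no call. In Gigyf2 the circle of exons 3 to 8 held 0.577% of 29443 reads. At the other end, Spag5 exons 17 to 23 held 98.8% and Fbxw7 exon 4, from a ubiquitin ligase gene known for circular RNA, held 97.3%.

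Many uncatalogued circles differed from a catalogued one by a single end. Of the 299, 83 shared only their start coordinate with a catalogued circRNA of the host, 87 only their end, 13 shared both ends with different circRNAs, and 116 shared neither. One member, in Mbtd1, had both ends within 10 bp of a catalogued circRNA, with a start 4 bp away, and held 578 reads against 998. The 2 pairs below, which share a donor and have many reads of the member, show such neighbours, with the 15 shared bases of the closing exon now in capitals and the 15 bases of the opening exon in lower case.
Tns3, exons 11 to 16, uncatalogued: GTGCGGATGGAGAAGgtacgtgcagtttct
Tns3, exons 14 to 16, catalogued: GTGCGGATGGAGAAGgtgaaatgctatcac
Apbb2, exons 7 to 11, uncatalogued: CCGAGACAACGGCCGaaacagccatggagt
Apbb2, exons 10 to 11, catalogued: CCGAGACAACGGCCGtgttttgctgtgcgt

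In Tns3, a tensin gene of focal adhesions, the uncatalogued circle had 3335 reads and the catalogued one 864. In Apbb2, an adaptor gene, the numbers were 2489 and 754. Over all 116 uncatalogued circles that shared 1 end with a catalogued circle found in every library, both fitting annotated exons, 70 shared the acceptor and 46 the donor. The uncatalogued one had more reads in 23 and fewer in 93, with a median ratio of 0.453 and a range from 0.00566 to 5.10.

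Among the 761 hosts, 566 gave 1 uncatalogued circle, 138 gave 2, 42 gave 3 and 15 gave 4 or more. In the 195 hosts with 2 or more, 314 of the 479 circles shared an end with another member, 210 at the acceptor and 133 at the donor. The host with the most was Arhgap10, a GTPase-activating gene, with 13 of its 81 listed circRNAs. They lay between exons 6 and 22, used 8 different start and 9 different end coordinates, and held 36.1% of the host's reads. Mean levels ran from 87.3 CPM for exons 11 to 18 to 1316 CPM for exons 9 to 13.

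**Figure D3:**
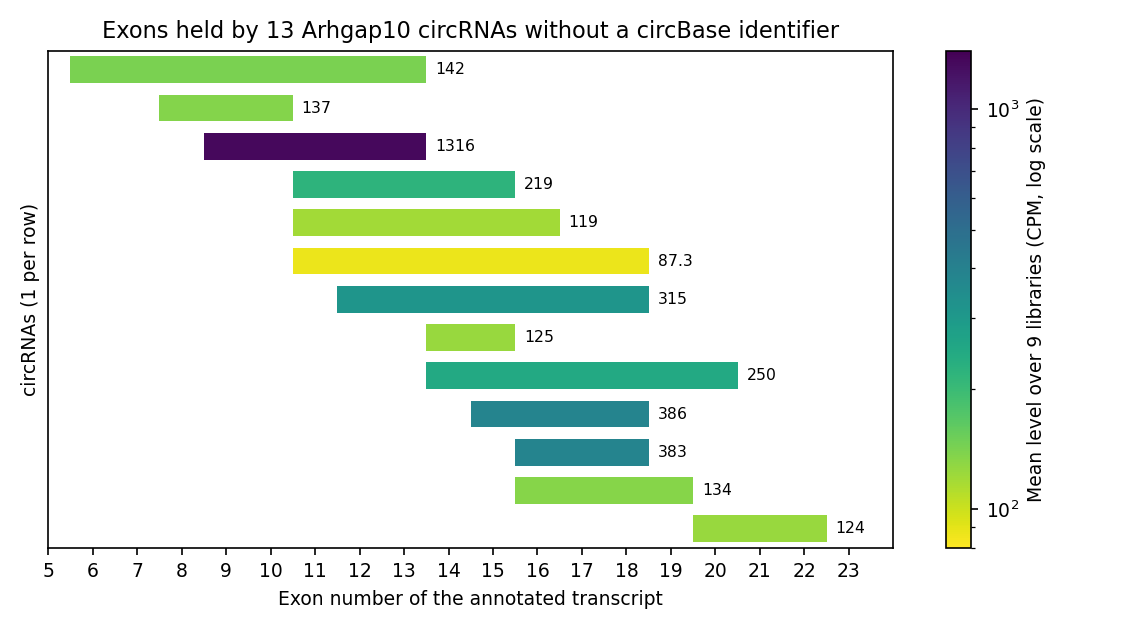
Exon numbers (x axis) covered by each of the 13 uncatalogued Arhgap10 circRNAs, 1 per row, with the mean level over 9 libraries (CPM) as colour on a log scale and as a number beside each bar. The circles overlap along exons 6 to 22, and exons 9 to 13 stand out at 1316 CPM.

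Of the 13 uncatalogued circles of Arhgap10, only that of exons 9 to 13 passed a test. It stood at 737, 979 and 1015 CPM at day 0, at 1300, 1381 and 1202 CPM at day 3 and at 1774, 1513 and 1939 CPM at day 6, with every library above those of the day before. The log2 change at day 6 was 0.94 ± 0.24, edgeR adjusted p = 0.017, lost with only the 2 groups, without day 0 replicate 1 and without day 6 replicate 3. The other 12 had log2 differences at day 6 from -0.51 to 2.01, none past the threshold. Adamts6, a secreted metalloprotease gene, gave 7 circles from exons 9 to 17 that held 72.2% of its reads. Its most abundant, exons 9 to 13, rose from 921 ± 255 CPM to 1751 ± 318 CPM at day 6, log2 change 0.93 ± 0.24, edgeR adjusted p = 0.023, a call lost with only the 2 groups, without day 0 replicate 1 or 2 and without day 6 replicate 2. Klc1, a kinesin light chain gene, and Trio, a guanine nucleotide exchange gene, gave 6 each, holding 87.0% and 62.6% of their hosts' reads, with no call at day 3 or day 6.

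Change over the days was tested in every circRNA that passed the filter on low counts, which all 1045 did. The rule used presence and not the size of a difference between days. At day 3 against day 0, 34 uncatalogued circles passed (3.25%), 27 higher (2.58%) and 7 lower (0.67%). Of all circRNAs tested 1.58% passed, 1.31% higher and 0.27% lower. Of the catalogued set 9.37% passed, 6.58% higher and 2.78% lower. DESeq2 called 40 higher and 33 lower, so that 54.8% of its calls were higher against 79.4% here. With library totals and no scaling factors, edgeR called 26 higher and 9 lower, 74.3% higher. The cause of these differences was not tested. Of all 8153 circRNAs tested, DESeq2 called 170 higher and 102 lower. The median log2 difference of all circRNAs tested was 0.12 under the scaling used here, 0.05 under library totals and -0.01 under DESeq2. That of the uncatalogued circles was 0.12, 0.03 and -0.03.

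At day 6 against day 0, 45 passed (4.31%), 30 higher (2.87%) and 15 lower (1.44%). Of all tested 1.99% passed, 1.47% higher and 0.515% lower. Of the catalogued set 9.37% passed, 5.57% higher and 3.8% lower. DESeq2 called 66 higher and 53 lower, 55.5% higher against 66.7% here and 63.8% under library totals. Of all 8153 tested, it called 272 higher and 194 lower. The median log2 difference of the uncatalogued circles was 0.06 here and 0.01 in DESeq2. Between day 6 and day 3, 1 circle passed, Spag5, which was lower (0.0957%, beside 0.0613% of all tested and 0.253% of the catalogued set), and 0 were higher. Without adjustment, 13 uncatalogued circles were higher and 22 lower between these days at a p under 0.05, 3.35% of them beside 4.34% of all tested. DESeq2 called 0 higher and 1 lower, beside 3 higher and 17 lower of all 8153 tested. The first 2 comparisons share the day 0 libraries, so their calls are not independent of each other.

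Together 48 uncatalogued circles passed at least once. Of these, 31 passed at both days against day 0, in the same direction each time, with 24 higher and 7 lower. A further 3 passed at day 3 only and 14 at day 6 only. Of the 48, 39 were the most abundant circle of their host, beside 639 of all 1045 (61.1%). From a host without a catalogued circRNA came 38 of the 48, beside 746 of all 1045 (71.4%). The share that passed was higher among circles with more reads. Among circles with at least the catalogued set's median number of reads, 37 of 222 uncatalogued and 46 of 198 catalogued passed at least once. Below it, 11 of 823 and 1 of 197 did.

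**Figure D4:**
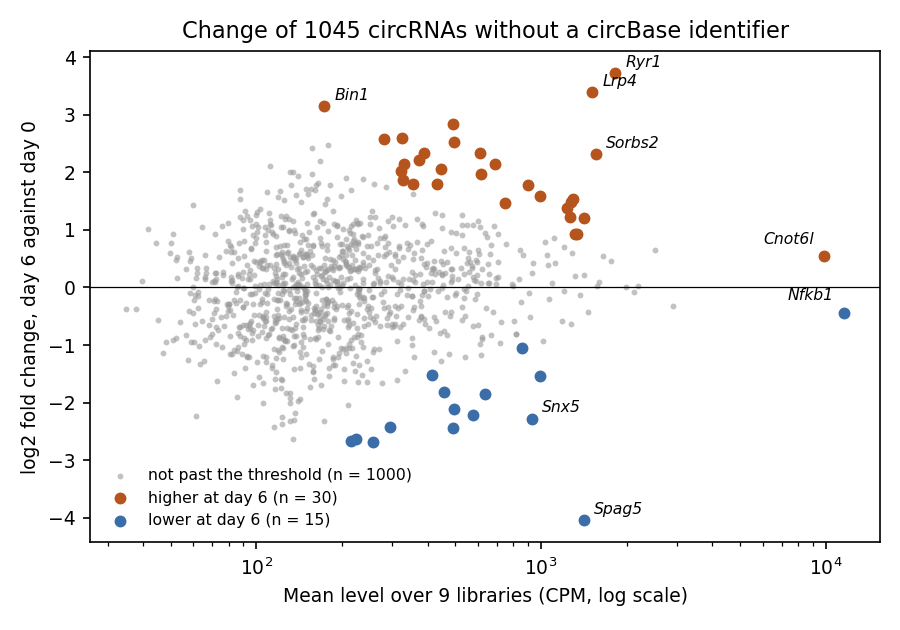
log2 fold change at day 6 against day 0 (y axis) against mean level over 9 libraries (CPM, log scale) for the 1045 uncatalogued circRNAs, with the 30 higher and 15 lower ones in colour. Ryr1 and Lrp4 lie at the top, Spag5 at the bottom, and the most abundant, Nfkb1 and Cnot6l, lie close to 0.

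Of the host lists, chosen with earlier results of these data known, muscle structure and calcium handling held 10 uncatalogued circles from 7 hosts. Of these, 3 rose at both days, from Ryr1, Dysf and Pde4dip, and 0 fell. Over all uncatalogued circles 2.58% passed as higher at day 3 and 2.87% at day 6, and over all tested 1.31% and 1.47%. The list's median log2 difference was 0.26 at day 3 and 0.45 at day 6, beside 0.12 and 0.01 over all circRNAs tested. The other 7, from Itpr2, Myh9, Myof, Pde4dip and Utrn, had no call. Over the 6 marker hosts of differentiating muscle, Ttn, Ryr1, Tnnt1, Neb, Myh3 and Dysf, all back-splice reads summed to 334 to 550 CPM at day 0, 10128 to 11909 CPM at day 3 and 11587 to 15544 CPM at day 6. Ryr1 and Dysf are hosts of members of this list, so these sums hold the reads of those members. In bulk RNA, a change in the number of cells that make a circle and a change in its amount per cell cannot be told apart. Of 5 fat and 5 bone cell markers 1 host each had reads, and of 3 macrophage and 3 endothelial markers none did. The fat cell marker gave 99.5 to 413 CPM at day 0, 111 to 277 CPM at day 3 and 93.3 to 198 CPM at day 6. The bone cell marker gave 247 to 334, 273 to 599 and 268 to 431 CPM.

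The Ryr1 circle, from the calcium release channel of the sarcoplasmic reticulum, stood at 387, 201 and 127 CPM at day 0. It stood at 1769, 2054 and 2295 CPM at day 3 and at 3827, 2665 and 3021 CPM at day 6. The 3 days did not overlap. The log2 change was 3.09 ± 0.26 at day 3 (edgeR adjusted p = 2.5e-13) and 3.73 ± 0.27 at day 6 (edgeR adjusted p = 1.9e-16), and both held in all 16 alternative fits. This junction carried 88.5% of the back-splice reads of Ryr1, a gene of 106 exons in the annotated transcript, and joins exon 89 to exon 85 within the coding sequence.

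Dysf, whose protein dysferlin repairs the muscle cell membrane, gave 125, 162 and 39.8 CPM at day 0 for exons 37 to 40. It reached 472, 666 and 580 CPM at day 3 and 701, 722 and 937 CPM at day 6, again without overlap between the days. The log2 change was 2.39 ± 0.43 (edgeR adjusted p = 1.9e-04) and 2.85 ± 0.44 (edgeR adjusted p = 6.3e-06), and the day 3 call was lost only with the 2 groups alone. Pde4dip encodes myomegalin, an anchoring protein of the Golgi and centrosome. Its circle of exons 5 to 8 rose from 200 ± 68.5 CPM to 620 ± 186 and 1013 ± 261 CPM, log2 changes of 1.63 ± 0.36 and 2.34 ± 0.37, edgeR adjusted p = 0.0051 and 1.1e-05. The day 3 call was lost without day 3 replicate 2 and with only the 2 groups. Pde4dip exons 4 to 8, which ends at the same donor, stood at 307 ± 79.8, 189 ± 46.9 and 236 ± 52.5 CPM with no call. The difference between these 2 circles was not tested.

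The list of myogenic regulators and fusion held 18 uncatalogued circles, of which 1 rose at day 3 and 2 at day 6, with 0 lower. Of all uncatalogued circles 2.58% and 2.87% passed as higher, and of all tested 1.31% and 1.47%. The list's median log2 differences were 0.76 and 0.41, beside 0.12 and 0.01 over all tested. Mef2a, a transcription factor gene of muscle, stood at 356, 320 and 470 CPM at day 0 for exons 5 to 7. It stood at 1104, 687 and 1246 CPM at day 3 and 1361, 1108 and 1461 CPM at day 6, so both later days lay above day 0. The log2 change was 1.41 ± 0.30 (edgeR adjusted p = 0.0023, lost with only the 2 groups) and 1.78 ± 0.30 (edgeR adjusted p = 4.2e-05, held throughout). Bin1, a membrane-bending protein of muscle T-tubules, rose at day 6 from 15.6, 54.0 and 31.8 CPM to 341, 183 and 379 CPM, log2 change 3.15 ± 0.78, edgeR adjusted p = 0.012. That call was lost with no filter, with only the 2 groups, without day 0 replicate 1, and without day 6 replicate 1 or 3. The 4 Nfix, 3 Mef2d, 2 Qk and 2 Foxp1 circles of this list had no call.

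Lrp4, the agrin receptor of the neuromuscular junction, gave the second largest rise at day 6 among the circles that passed. It belongs to the list of matrix, adhesion and receptor hosts. Exons 14 to 16, of 1668 bp span, stood at 353, 212 and 167 CPM at day 0, at 1583, 1592 and 1952 CPM at day 3 and at 2340, 2487 and 2888 CPM at day 6. Each day lay wholly above the one before. The log2 change was 2.80 ± 0.25 (edgeR adjusted p = 2.8e-12) and 3.39 ± 0.26 (edgeR adjusted p = 2.3e-15), held in all 16 alternative fits. Of the 16 circles of that list, 1 rose at day 3, and at day 6 2 rose, Lrp4 and Adamts6, and 1 fell. Of all uncatalogued circles 2.58% passed as higher at day 3, and at day 6 2.87% as higher and 1.44% as lower. The circle of the list that fell was Ltbp1 exons 2 to 3, from a gene for a protein that holds latent TGF-beta in the matrix. It went from 1609 ± 87.3 to 812 ± 229 and 553 ± 169 CPM, log2 change -1.54 ± 0.29 at day 6, edgeR adjusted p = 2.5e-04, held throughout. Insr exon 2, from the insulin receptor gene, stood at 786 ± 320, 1534 ± 176 and 1283 ± 438 CPM, edgeR adjusted p = 0.060 at day 3.

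Among the 38 circles of GTPase regulators and cytoskeletal linkers, 2 rose at day 3 and 3 at day 6, with 0 lower. Of all uncatalogued circles 2.58% and 2.87% passed as higher, and of all tested 1.31% and 1.47%. DESeq2 called 7 of the 38 higher and 0 lower at day 6, beside 272 higher and 194 lower of all 8153 tested. Sipa1l1 exons 5 to 7, from a Rap GTPase-activating gene, stood at 142 ± 44.3, 609 ± 104 and 590 ± 65.1 CPM. Its log2 changes were 2.10 ± 0.42 and 2.05 ± 0.42, edgeR adjusted p = 0.0012 and 0.0011, and both held in all 16 alternative fits. Tns3 exons 11 to 16, printed above, stood at 369, 679 and 864 CPM at day 0, at 1480, 1315 and 1428 CPM at day 3 and at 1842, 2706 and 1004 CPM at day 6. Its log2 changes were 1.14 ± 0.28 and 1.54 ± 0.28, edgeR adjusted p = 0.013 and 1.6e-04. The day 3 call was lost with DESeq2, with a minimum count of 10, with only the 2 groups and without day 0 replicate 1, and the day 6 call with only the 2 groups.

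Further large rises came from Sorbs2, Dclk1, Bnc2, Hecw2, Mid1 and Rnf150. Sorbs2, an adaptor of the actin cytoskeleton and Z-discs, was taken up after its values were seen. It stood at 375, 409 and 728 CPM at day 0, 1567, 1700 and 1694 CPM at day 3 and 2183, 2199 and 3132 CPM at day 6, without overlap between the days. Its log2 changes were 1.71 ± 0.24 (edgeR adjusted p = 1.4e-06) and 2.31 ± 0.25 (edgeR adjusted p = 2.9e-10), held throughout. Dclk1, a microtubule-binding kinase, rose from 75, 158 and 143 CPM to 661, 592 and 674 CPM at day 3 and 674, 844 and 646 CPM at day 6. This circle of 10 exons and 1020 nucleotides changed by 2.36 ± 0.41 and 2.52 ± 0.41, edgeR adjusted p = 8.7e-05 and 1.7e-05, held throughout. Here day 3 and day 6 overlapped, and both lay above day 0.

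Bnc2 exons 2 to 4 stood at 81.2, 57.8 and 47.8 CPM at day 0. It rose to 295, 494 and 803 CPM at day 3 and 234, 560 and 350 CPM at day 6, log2 changes of 3.08 ± 0.55 and 2.60 ± 0.54, edgeR adjusted p = 1.5e-04 and 0.0011, the day 6 call lost with only the 2 groups. Hecw2 exons 11 to 19, from a ubiquitin ligase gene, gave 106 ± 46.2, 517 ± 55.8 and 541 ± 209 CPM, log2 changes of 2.27 ± 0.48 and 2.34 ± 0.48, edgeR adjusted p = 0.0021 and 9.4e-04, both lost with only the 2 groups. Mid1 exon 2, from another ubiquitin ligase gene, stood at 119, 38.6 and 51.7 CPM at day 0 and at 482, 87.6 and 487 CPM at day 3, which overlap. The day 3 change of 2.32 ± 0.60 passed (edgeR adjusted p = 0.023) but was lost in 7 of 16 alternative fits, and was 2.94 without day 0 replicate 1. At day 6 it stood at 292, 568 and 398 CPM, all above day 0, log2 change 2.57 ± 0.61, edgeR adjusted p = 0.0065, lost with only the 2 groups and without day 6 replicate 2, and at 3.19 without day 0 replicate 1. Rnf150 exons 2 to 6, from a further ubiquitin ligase gene, stood at 175, 81.0 and 99.5 CPM at day 0, 559, 557 and 501 CPM at day 3 and 319, 227 and 201 CPM at day 6. Both later days lay above day 0, but the day 6 difference of 1.06 (edgeR adjusted p = 0.35) and that between day 6 and day 3 (edgeR adjusted p = 0.66) did not pass. Its day 3 change of 2.18 ± 0.53 (edgeR adjusted p = 0.012) was lost in 7 of 16 alternative fits, with no filter, with only the 2 groups, without day 0 replicate 2 or 3 and without any 1 of the day 3 libraries.

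**Figure D5:**
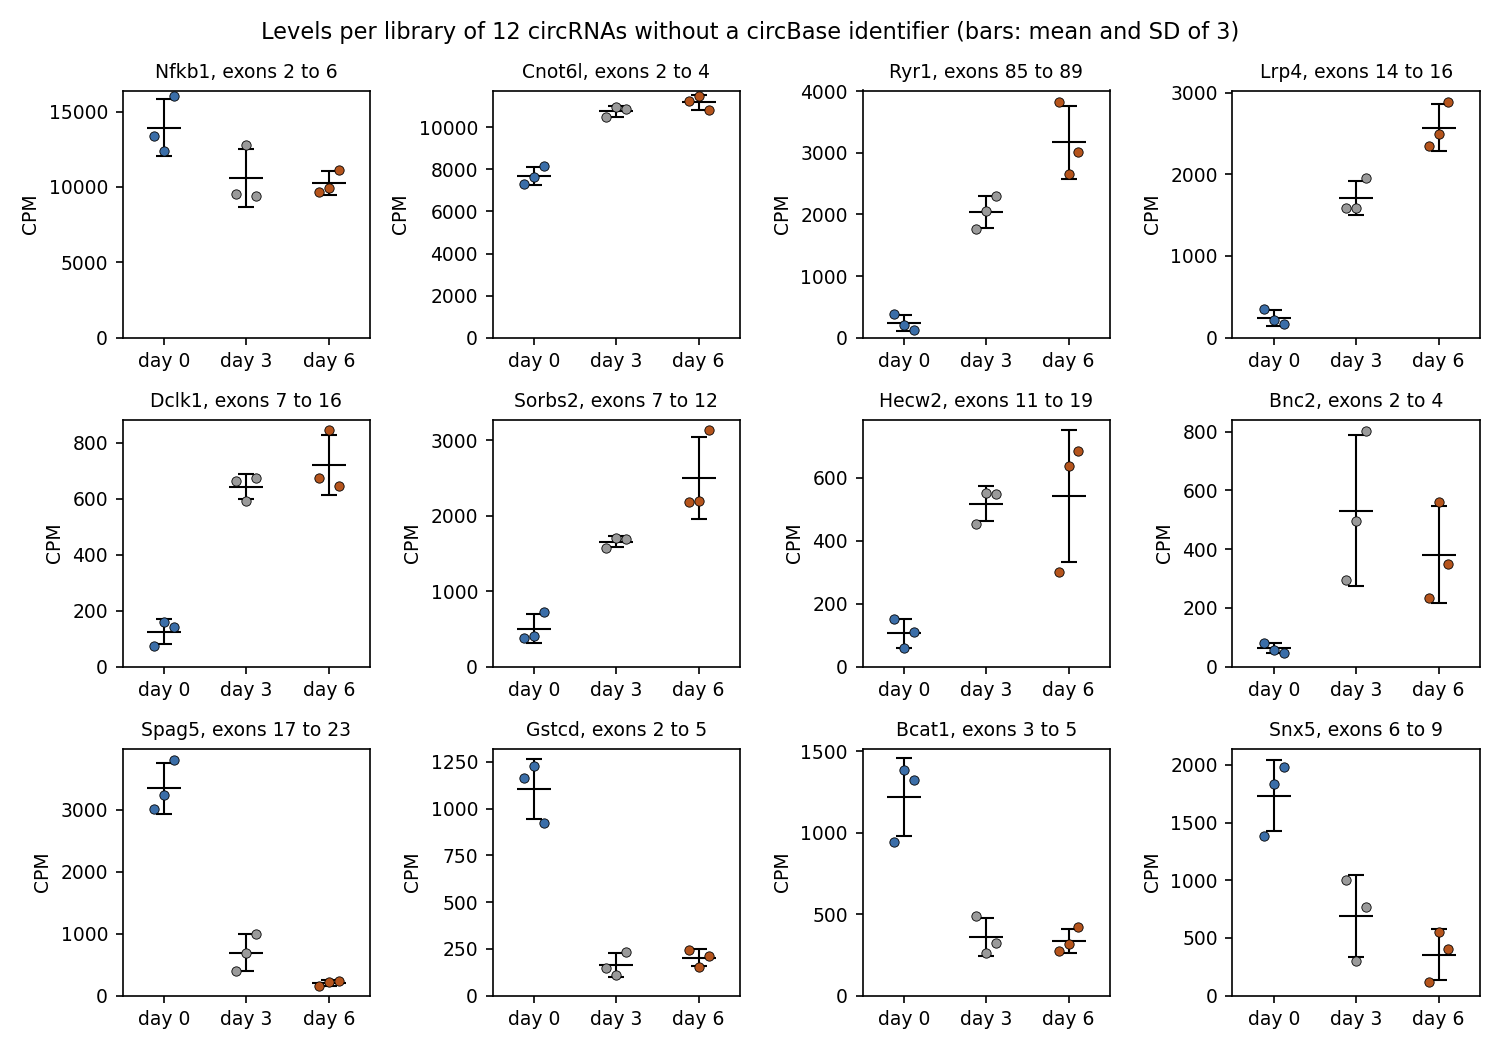
Level in CPM of 12 uncatalogued circRNAs in each library (points), with the mean and SD of 3 libraries (bars), by day, on axes that start at 0. Ryr1, Lrp4, Dclk1, Sorbs2, Hecw2 and Bnc2 are low at day 0, Spag5, Gstcd, Bcat1 and Snx5 are high at day 0, and the days lie closer together for Nfkb1 and Cnot6l.

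The list of cell cycle, mitosis and DNA replication held 12 uncatalogued circles from 8 hosts. None rose, and 2 fell at day 3 and 3 at day 6. Of all uncatalogued circles 0.67% and 1.44% passed as lower, and of all tested 0.27% and 0.515%. The list's median log2 difference was -0.73 and -1.29, beside 0.12 and 0.01 over all tested. Without adjustment, 0 were higher and 6 lower at day 6 at a p under 0.05 (edgeR), where 540 of all 8153 tested were higher and 409 lower. DESeq2 called 0 higher and 6 lower at day 6, beside 272 higher and 194 lower of all tested. All back-splice reads of the 6 marker hosts of proliferation, Spag5, Bub1b, Kif14, Knl1, Top2a and Mki67, summed to 5537 to 6456 CPM at day 0, 1066 to 1381 CPM at day 3 and 404 to 426 CPM at day 6. Spag5 and Knl1 are hosts of members of this list. The part of the markers in these results was not tested.

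Spag5 encodes astrin, a protein of the mitotic spindle. Its circle of exons 17 to 23, spanning 1781 bp, stood at 3004, 3231 and 3801 CPM at day 0, at 398, 694 and 988 CPM at day 3 and at 148, 223 and 234 CPM at day 6. The 3 days did not overlap. The log2 change was -2.27 ± 0.26 at day 3 (edgeR adjusted p = 6.3e-09) and -4.04 ± 0.29 at day 6 (edgeR adjusted p = 1.5e-16), both held throughout. Day 6 lay under day 3 by -1.77 on the log2 scale, edgeR adjusted p = 3.9e-05, lost with only the 2 groups.

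Diaph3, a formin gene of actin assembly, gave a pair of circles from neighbouring exons. Exons 23 to 25 stood at 996, 910 and 1469 CPM at day 0, 453, 312 and 320 CPM at day 3 and 418, 142 and 168 CPM at day 6. Both later days lay under day 0, with log2 changes of -1.64 ± 0.38 (edgeR adjusted p = 0.0076, lost without day 0 replicate 3) and -2.22 ± 0.39 (edgeR adjusted p = 8.3e-05, held throughout, -2.83 without day 6 replicate 1). Exons 21 to 22 went from 487 ± 88.8 to 109 ± 80.3 and 78.0 ± 19.2 CPM, a log2 change at day 6 of -2.63 ± 0.66, edgeR adjusted p = 0.014, lost with no filter, without day 0 replicate 3 and without day 6 replicate 2. Cit exons 7 to 8, from the cytokinesis kinase citron, stood at 421 ± 106, 176 ± 60.4 and 135 ± 81.0 CPM with no call, and Knl1 exons 9 to 11, from a kinetochore gene, at 232 ± 68.8, 95.0 ± 46.3 and 64.8 ± 29.4 CPM with no call. The 3 Cdk14 circles, the Cdk8 circle, the 2 Cep192 circles and the Pcnt circle had none either.

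Other circles that fell lay outside that list. Gstcd exons 2 to 5, which held 96.6% of its host's reads, stood at 1162, 1226 and 923 CPM at day 0, at 148, 109 and 235 CPM at day 3 and at 243, 154 and 213 CPM at day 6. Both later days lay far under day 0 and overlapped each other, with log2 changes of -2.75 ± 0.41 (edgeR adjusted p = 6.0e-06) and -2.44 ± 0.41 (edgeR adjusted p = 3.7e-05), held throughout. Bcat1, a branched-chain amino acid aminotransferase gene, fell from 943, 1384 and 1321 CPM to 488, 263 and 322 and to 274, 316 and 419 CPM, log2 changes of -1.76 ± 0.35 and -1.85 ± 0.35, edgeR adjusted p = 7.9e-04 and 2.9e-04, held throughout. Snx5, a sorting nexin gene, fell from 1387, 1832 and 1986 CPM to 117, 548 and 402 CPM at day 6, log2 change -2.28 ± 0.36, edgeR adjusted p = 1.2e-05, held throughout. At day 3 it stood at 1005, 301 and 768 CPM, edgeR adjusted p = 0.028, lost with DESeq2, with a minimum count of 10, with only the 2 groups and without day 3 replicate 2.

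Mmd, Foxn2 and Fkbp5 passed as lower at day 6 and not at day 3, and their differences between day 6 and day 3 did not pass. Mmd exons 2 to 6 stood at 565, 393 and 605 CPM at day 0, 170, 182 and 164 CPM at day 3 and 22.5, 101 and 116 CPM at day 6. Day 3 already lay under day 0, with a log2 difference of -1.60 (edgeR adjusted p = 0.26). At day 6 its log2 change was -2.68 ± 0.60, edgeR adjusted p = 0.0035, lost with only the 2 groups and without day 6 replicate 1. Foxn2 exon 2, from a forkhead gene, stood at 175, 440 and 438 CPM at day 0, at 289, 119 and 305 CPM at day 3, which overlap, and at 18, 56.8 and 87.6 CPM at day 6, log2 change -2.66 ± 0.67, edgeR adjusted p = 0.016, lost with no filter, with only the 2 groups, without day 0 replicate 2 or 3 and without day 6 replicate 1 or 2. Fkbp5, a co-chaperone of steroid receptors, stood at 597, 301 and 844 CPM at day 0, 164, 144 and 284 CPM at day 3 and 76.4, 179 and 71.0 CPM at day 6. Its day 3 libraries lay under day 0, with a log2 difference of -1.55 (edgeR adjusted p = 0.22), and at day 6 the log2 change was -2.42 ± 0.56, edgeR adjusted p = 0.0055, lost with only the 2 groups and without day 0 replicate 3. In each the day 6 libraries lay under all day 0 libraries.

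The ubiquitin list held 15 circles, with 1 lower at each day and 0 higher. Of all uncatalogued circles 0.67% and 1.44% passed as lower. The list's median log2 differences were -0.04 and -0.32, beside 0.12 and 0.01 over all tested. Without adjustment 0 were higher and 2 and 3 lower at a p under 0.05 (edgeR), 13.3% and 20% of the list, where 9.5% and 11.6% of all circRNAs tested were under it in either direction. DESeq2 called 2 and 3 lower, beside 102 and 194 lower of all 8153 tested. The list does not hold every ubiquitin gene: Hecw2, Mid1, Rnf150 and Pja2, ubiquitin ligase genes outside it, gave circles that passed as higher, described above except for Pja2 (log2 changes 1.91 ± 0.49 and 2.21 ± 0.50, edgeR adjusted p = 0.023 and 0.0039). The Pja2 call at day 3 was lost with no filter, with only the 2 groups, and without day 0 replicate 2, day 3 replicate 1, day 3 replicate 2 or day 6 replicate 2, and that at day 6 with only the 2 groups and without day 6 replicate 2. The list circle that passed came from Nedd4, a ubiquitin ligase gene. Exons 2 to 5 stood at 968, 744 and 1071 CPM at day 0, 257, 578 and 193 CPM at day 3 and 175, 235 and 234 CPM at day 6. Its log2 change at day 6 was -2.11 ± 0.41, edgeR adjusted p = 5.2e-04, held throughout. At day 3 it was -1.44 ± 0.40, edgeR adjusted p = 0.049, lost in 7 of 16 alternative fits: no filter, a minimum count of 10, only the 2 groups, and without day 0 replicate 1, day 0 replicate 3, day 3 replicate 1 or day 3 replicate 3. Without day 3 replicate 2 that change was -2.04. Exons 2 to 6, from the same acceptor, stood at 1039 ± 240, 583 ± 123 and 532 ± 110 CPM with no call. Of the reads of these 2 circles, exons 2 to 5 took 47.4% ± 3.42 at day 0, 35.7% ± 13.9 at day 3 and 28.9% ± 1.70 at day 6, and each day 6 library lay under each day 0 library. That shift in share was not tested.

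For the pairs that share an end with a catalogued circle, one or the other passed at day 6 in 16 of 116, the uncatalogued circle alone in 3, the catalogued one alone in 13, and both in 0. At day 3 one or the other passed in 16, the uncatalogued circle alone in 3, the catalogued one alone in 12, and both in 1, Rnf150. A pass in 1 and not in the other does not show that they differ, and the difference was not tested. The log2 differences at day 6 of 6 such pairs, chosen after they were seen, are given side by side, first 3 with unlike and then 3 with like values. In Utrn, the dystrophin relative utrophin, the uncatalogued exons 61 to 64 had a log2 difference of -0.37 with 436 reads, and the catalogued exons 60 to 64 had 1.61 with 10437 reads. In Hecw2 the uncatalogued exons 11 to 19 had 2.34 with 1089 reads, and the catalogued exons 11 to 17 had 1.18 with 573. In Bnc2 the uncatalogued exons 2 to 4 had 2.60 with 898 reads, and a narrower catalogued circle from the same acceptor had 0.84 with 1768. In Rnf150 both circles had 1.06, with 818 and 1382 reads. In Agap1 the uncatalogued exons 2 to 9 had -1.44 with 422 reads and the catalogued exons 2 to 6 had -1.81 with 3918. In Arhgap10 the uncatalogued exons 16 to 19 had 2.01 with 365 reads and the catalogued exons 14 to 19 had 1.38 with 4519.

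Several lists had few or no calls. Of all uncatalogued circles 3.25% passed at day 3 and 4.31% at day 6, and of all tested 1.58% and 1.99%. At such shares lists of this size hold few calls, so the counts do not set these lists apart. The lists do not hold every gene of their class, and some of the called circles outside them, not all, are named. RNA binding, splicing and decay held 25 circles, of which Cnot6l exons 2 to 4 passed, at both days. Outside that list, Rbm20, a splicing regulator of titin, rose from 756, 482 and 573 CPM to 1435, 1865 and 1266 CPM at day 3 and 1505, 1923 and 1652 CPM at day 6, with no overlap between day 0 and the later days. Its log2 changes were 1.33 ± 0.25 and 1.49 ± 0.25, edgeR adjusted p = 3.7e-04 and 4.3e-05, the first lost with only the 2 groups. Dhx15, a splicing helicase gene outside the list, fell at day 6 from 774 ± 70.8 to 220 ± 8.27 CPM, log2 change -1.81 ± 0.42, edgeR adjusted p = 0.0055. The 22 circles of hosts well known for circRNAs included 1 that passed, Bnc2. Camsap1 exons 2 to 3 of that list, from a microtubule minus-end gene, stood at 1558 ± 52.5, 1576 ± 229 and 1588 ± 182 CPM, with a log2 difference of 0.03 ± 0.22 at day 6. Fbxw7 exon 4 stood at 723 ± 259, 889 ± 23.4 and 756 ± 369 CPM. Among the 23 circles of chromatin regulators, 20 of kinases and phosphatases and 17 of membrane traffic and lipid, edgeR called 0 at either day. Outside these lists, Dclk1, a kinase gene, and Snx5, a sorting nexin gene, passed as described above. Mta1, a chromatin remodelling gene, passed as lower at day 6, log2 change -1.52 ± 0.43, edgeR adjusted p = 0.044, lost in 12 of 16 alternative fits, among them each fit that left out 1 library. At an unadjusted p under 0.05 on day 6 these lists had 0 higher and 1 lower, 1 higher and 0 lower, and 1 higher and 0 lower. DESeq2 on day 6 called 0, 1 higher and 0, and on day 3 it called 1 chromatin circle lower and none of the others. Its calls among all 8153 tested are given above. Arid1b exons 2 to 4, the most abundant of the chromatin list, stood at 803 ± 193, 1310 ± 317 and 1051 ± 198 CPM. Over the whole set, 680 of 1045 (65.1%) kept the mean CPM of all 3 days within 2-fold of one another, against 257 of 395 (65.1%) in the catalogued set.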

How the data were processed

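The authors deposited 1 table of raw back-splice read counts per circRNA and library, with locus, type, host and any circBase identifier. BWA and GRCm38.p4 (mm10) were used, per the submitters' processing notes. The circRNA caller, its filters and the catalogue match: not given in the sources used here. Per the labels' protocols, TRIzol RNA was enriched for circRNAs by bead clean-up and DNase before an mRNA-seq kit. The smallest deposited count above 0 is 2, so single reads are listed at 0. The table holds no linear reads.

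Circle ends were matched to exon edges of GENCODE M21 (GRCm38); 92.9% of exonic starts and 92.9% of ends lay on an edge at an offset of 0 bp. Where several transcripts fitted, 1 was used for exon numbers, so isoforms inside a circle are not known. No genome sequence was used, so the planned check of intron letters at the ends was not run.

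Counts were tested with edgeR 4.0.16 (quasi-likelihood F-test, TMM, 9 libraries in 1 fit, filterByExpr with minimum count 5 and total 15, Benjamini-Hochberg over 8153 circRNAs, threshold 0.05), in R 4.3.3. The SE is the absolute log2 change over the square root of F, and the prior count was 0.125. The 8153 held 86.2% of reads. On simulated counts the sizes of change were recovered on average. Circles simulated with 2-fold changes did not pass, and only a minority of those with 4-fold changes did. The simulated folds were enlarged after this was seen, so uncalled circles may have changed. Alternatives were other scalings, DESeq2 1.42.0, other filters, fewer libraries and a replicate block.

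Members, host lists and naming rules were chosen with earlier results of these data known. Named are the 8 most abundant, the 8 largest increases and 6 largest decreases per comparison (4 each between day 6 and day 3), the longest and shortest 3, the 4 hosts with most members, up to 4 per list, and the lowest and highest 3 host shares; not every one is described. Others were chosen after their values were seen: Sorbs2, Rbm20, Dhx15, Mta1, Pja2, Pde4dip exons 4 to 8, Knl1, Utrn, Mbtd1, the pairs that share an end, and members named only as having no call. Some items that these rules select are not reported here.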

Additional observations from a re-analysis of the deposited data

How the results depend on the processing

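Of the 80 calls of single circles, tried in 16 alternative fits each, 1109 of 1280 kept their direction and side of the threshold, 171 kept their direction but no longer passed, and 0 reversed. At day 3, 9 of 34 calls held in every alternative, and at day 6 20 of 45. Fitting only the 2 groups compared, which leaves fewer libraries to estimate the spread, gave 6 higher and 4 lower at day 3, 13 higher and 9 lower at day 6, and 0 lower between day 6 and day 3. DESeq2 gave 33 lower at day 3 and 66 higher and 53 lower at day 6, and a minimum count of 10 gave 4 lower at day 3; the cause was not tested.

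Leaving out 1 library at a time gave 21 to 29 higher and 5 to 8 lower at day 3, 26 to 31 higher and 10 to 17 lower at day 6, and 0 higher and 1 to 2 lower between day 6 and day 3, with 2 without day 3 replicate 2. The lowest count of lower circles at day 6, 10, came without day 0 replicate 3. With the replicate block, 30 were higher and 8 lower at day 3, 32 higher and 14 lower at day 6, and 0 higher and 1 lower between them, and 2 calls were lost. The deviations of libraries of the same number had correlations from -0.029 to 0.0088, and those of different numbers from -0.018 to 0.022. All tested circles weighed equally in this check, low counts included, so it cannot exclude that the numbers pair the libraries.

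The share of reads was 31.3%, 32.1% and 32.3% of exonic back-splice reads at days 0, 3 and 6, and with at least 5 reads in each library (972 circles) it was 29.9% at day 3 and 30.3% at day 6. Without 1 library it ran from 29.3% to 30.0% at day 0, from 30.6% to 30.7% at day 3 and from 30.6% to 31.0% at day 6. Of the 1045, 823 had fewer reads than the catalogued median, and 11 of them passed; the part of depth in the number of calls was not tested.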
